A study of Arabidopsis thaliana with 36 samples.

Results

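Dehydrins are late embryogenesis abundant proteins that plants accumulate when cells lose water. Their transcripts were followed in roots and shoots of Arabidopsis thaliana seedlings kept either in water or in a solution of polyethylene glycol (PEG) that also held salicylhydroxamic acid (SHAM). The 6 dehydrin genes described here, of 16283 genes in the table, were taken by gene identifier: COR47 (AT1G20440), ERD10 (AT1G20450), ERD14 (AT1G76180), RAB18 (AT5G66400), LTI30 (AT3G50970) and HIRD11 (AT1G54410). All 36 libraries are used. All 6 passed the filter on low values in both tissues, so each of them was tested in every comparison.

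As background, dehydrins are very hydrophilic and largely unfolded proteins that carry copies of a lysine-rich K-segment. They are held to shield membranes and other proteins while water is withdrawn, and their genes are known for induction by drought, cold and the hormone abscisic acid. COR47, ERD10 and ERD14 are acidic dehydrins with a run of serines, and ERD10 and ERD14 act as chaperones in the test tube. RAB18 is best known as a marker of the response to abscisic acid, LTI30 binds membranes and is known from cold-treated plants, and HIRD11 is a small histidine-rich dehydrin that binds metal ions. Abscisic acid acts on such genes through bZIP factors (the ABF family) that bind the abscisic acid-responsive element (ABRE), while factors of the DREB family bind the dehydration-responsive element (DRE).

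The seedlings were wild type (WT), ecotype Columbia-0, 7 d old, with 30 to 50 seedlings per biological replicate, and roots and shoots were separated after the treatment. Treated seedlings received 30% PEG with 1 mM SHAM for 1, 2 or 3 h, and the controls are 3 sets labelled as water for 1 h, whose titles begin with S0, PS0 or PH0. PEG withdraws water from the plant and SHAM inhibits the alternative oxidase and lipoxygenases. The solution measured -2.0 MPa, and the protocol also names 0.1 mM SHAM, so the dose is uncertain. Each of the 12 groups (6 treatments or water sets in each of the tissues) holds 3 libraries, made by MARS-seq, which reads the 3′ ends of transcripts. Libraries of PEG alone, of SHAM alone and of water for 2 h or 3 h were not analysed here. The effects of PEG and SHAM cannot be told apart, nor can the treatment at 2 h and 3 h be told apart from longer handling. The treated libraries were set against PS0, whose title prefix they share, and the other water sets are given beside it.

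Depth differed widely, from 161684 to 7181461 recovered reads per library with a median of 1668297.5, and 5 of the 36 libraries had fewer than 600000 reads. The tissue labels held: the summed normalized count of 12 shoot marker genes was 365.9 to 4188.4 in roots and 121808.9 to 315359.9 in shoots. The sum of 10 root marker genes was 1174.6 to 5137.6 in roots and 45.1 to 184.7 in shoots. One root library stands apart for the dehydrins, replicate 3 of the PS0 water set, with 521030 reads and the highest value of its set for all 6 genes. Levels below are normalized counts, the authors' gene counts divided by a size factor of the library. Differences are log2 differences of the normalized count plus 1 with their SE, and a call is an adjusted p below 0.05 in limma over all genes tested.

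The bases upstream of 3 of the genes are shown first, because RAB18 and LTI30 carry repeated copies of different known elements, whereas ERD10, which had the highest log2 difference from PS0 water at 3 h in each tissue, carries neither. Each window is the 250 bases before the annotated gene start in RefSeq's TAIR10.1, written 5′ to 3′ on the gene's strand. RAB18 is at chr5:26519448-26519697 (minus strand), LTI30 at chr3:18940393-18940642 (plus strand) and ERD10 at chr1:7089607-7089856 (minus strand). The sources used here do not give the authors' own build, and the genes were found by identifier. Capitals mark the ABRE core ACGTG and the DRE core CCGAC on either strand, so a copy on the other strand reads CACGT or GTCGG.
RAB18: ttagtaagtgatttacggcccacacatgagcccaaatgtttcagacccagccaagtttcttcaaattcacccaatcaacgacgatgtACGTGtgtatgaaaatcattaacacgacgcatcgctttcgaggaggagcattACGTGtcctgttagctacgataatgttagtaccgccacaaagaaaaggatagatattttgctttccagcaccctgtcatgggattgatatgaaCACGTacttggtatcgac
LTI30: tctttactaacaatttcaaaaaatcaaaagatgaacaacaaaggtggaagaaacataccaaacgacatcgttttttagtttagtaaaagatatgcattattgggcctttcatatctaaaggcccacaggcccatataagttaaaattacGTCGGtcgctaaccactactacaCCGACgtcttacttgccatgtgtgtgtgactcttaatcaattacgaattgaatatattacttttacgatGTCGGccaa
ERD10: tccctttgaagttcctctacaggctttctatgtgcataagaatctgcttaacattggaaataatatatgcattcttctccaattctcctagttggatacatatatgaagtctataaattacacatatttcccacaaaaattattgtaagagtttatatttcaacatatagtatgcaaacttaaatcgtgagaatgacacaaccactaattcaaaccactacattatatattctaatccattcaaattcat

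RAB18 held 3 ABRE cores and no DRE core, and LTI30 held 3 DRE cores and no ABRE core. In RAB18 the cores began 163, 111 and 18 bases before the gene start, and in LTI30 they began 101, 78 and 9 bases before it. ERD14 and HIRD11 each held 1 ABRE core, which began 85 and 241 bases before the start. COR47, like ERD10, held neither. The longer form ACGTGGC was in none of the 6 windows. Of the windows of 27443 nuclear protein-coding genes, 22.9% held the ABRE core, 12% the DRE core and 3.37% the longer form. These matches describe letters in a short window, sites outside it were not searched, and binding was not measured. How often a window holds repeated copies was not counted over all genes. Whether any match bears on the level of its gene was not tested. COR47 and ERD10 are neighbours on chromosome 1 and LTI30 lies beside the dehydrin gene XERO1 (AT3G50980) on chromosome 3. None of the 30-base words in the last 400 transcript bases of any member was found in a transcript of another gene.

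**Figure D1:**
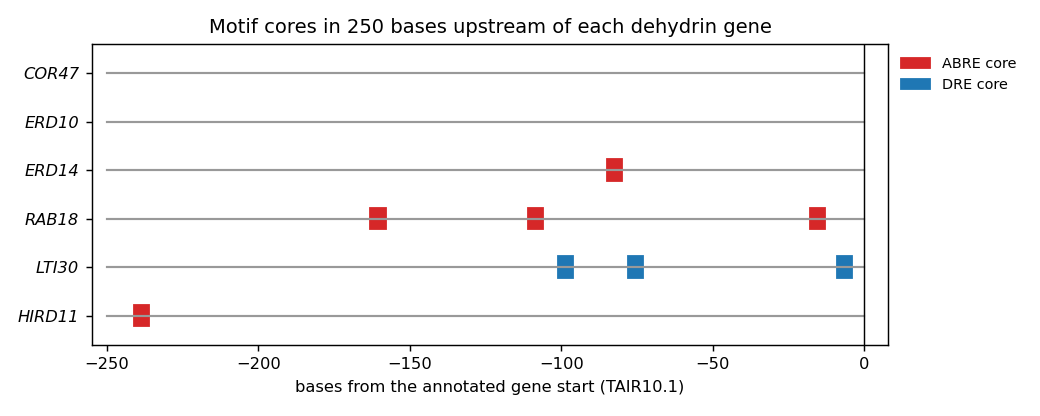
Positions of the ABRE core (ACGTG) and the DRE core (CCGAC) in the 250 bases upstream of each of the 6 dehydrin genes; the x axis is the distance from the annotated gene start in bases. RAB18 holds 3 ABRE cores, LTI30 holds 3 DRE cores, ERD14 and HIRD11 hold 1 ABRE core each, and COR47 and ERD10 hold none.

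In shoots, 5 of the 6 dehydrins rose under PEG and SHAM. At 3 h against PS0 water the called genes were ERD10, RAB18, COR47, ERD14 and LTI30, where 6.66% of all 10459 tested genes were called higher. The same 5 were called at 2 h, with 4.36% of all genes called higher, and at 1 h 1 of 6, ERD10, was called, with 0.65% called higher. The median log2 difference of the 6 dehydrins was 0.46 at 1 h, 1.81 at 2 h and 2.51 at 3 h, while that of all tested genes was -0.02, -0.09 and -0.08. HIRD11 passed at no time. In whole tissues, fewer cells of a type and less RNA per cell cannot be told apart.

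In roots 2 of the 6 dehydrins, ERD10 and LTI30, were called higher at 3 h against PS0 water, where 3.49% of all 11950 tested genes were called higher. At 2 h limma called 0 of 6 (1.78% of all genes higher). At an unadjusted p below 0.05 there were 2 of 6, beside 1803 of all 11950 genes either way. At 2 h edgeR and DESeq2 called 1 each, and their counts over all genes are not given here. At 1 h limma called 0 of 6 (0.837% of all genes higher), and 0 of 6 had an unadjusted p below 0.05 or a call by edgeR or DESeq2. Of all 11950 genes, 2070 had an unadjusted p below 0.05 at 1 h. The median log2 difference of the 6 was 0.21, 0.33 and 0.85 at 1, 2 and 3 h, beside -0.12, -0.10 and -0.16 for all tested genes. Together the 6 genes made up 1.72% ± 0.461 (SD, n = 3) of all normalized counts in roots of PS0 water and 2.1% ± 0.603 at 3 h. In shoots their share was 0.591% ± 0.0686 in PS0 water and 2.02% ± 0.133 at 3 h.

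**Figure D2:**
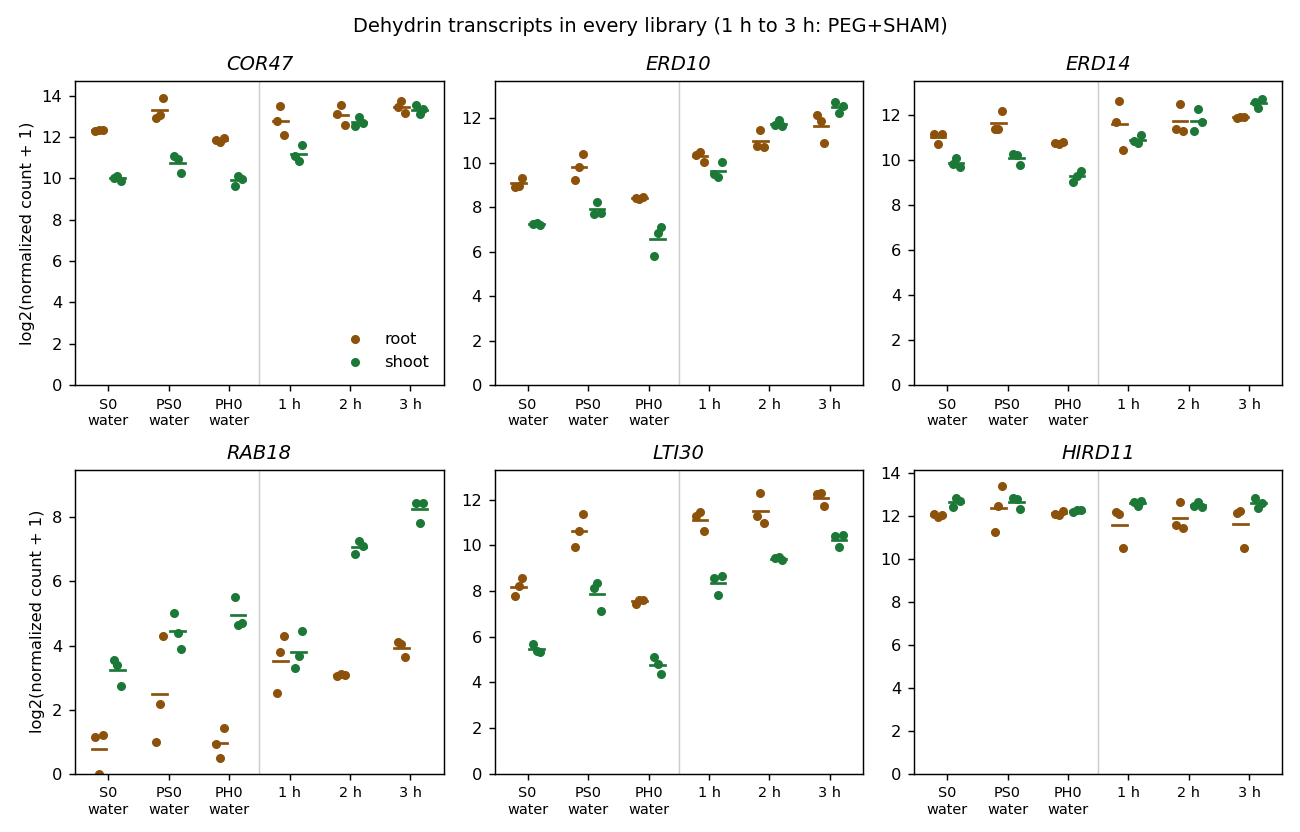
Normalized count of each of the 6 dehydrins in every library on a log2(value + 1) axis, with roots and shoots side by side and the 3 water sets before 1, 2 and 3 h of PEG and SHAM; each point is 1 library and each bar the mean of 3. Shoot values of COR47, ERD10, ERD14, RAB18 and LTI30 climb out of the range of the water sets by 2 h, and HIRD11 stays level.

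ERD10, an acidic dehydrin first found as an early transcript of dehydration, showed the largest log2 difference of the 6 in shoots at each time. Its normalized counts in shoots were 208, 298.5 and 214.5 in PS0 water, 711.1, 653.9 and 1056.4 at 1 h, 3319.4, 3870.2 and 3248.4 at 2 h, then 6781.3, 4751.9 and 6087.4 at 3 h. The libraries of each time lay above all those of the time before, with no overlap. Against PS0 the log2 difference was 1.73 ± 0.26 at 1 h (adjusted p = 0.00154), 3.87 ± 0.26 at 2 h (5.1e-09) and 4.61 ± 0.26 at 3 h (3.09e-10). The mean at 3 h was 24.4 times that of PS0. From 1 h to 3 h ERD10 rose by 2.88 ± 0.26 (adjusted p = 6.13e-07), and each of these calls was kept when any 1 of the 6 compared libraries was left out.

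In roots ERD10 stood at 604.3, 903 and 1325.8 in PS0 water, 1302.7, 1420.3 and 1052.6 at 1 h, 1722.7, 2805.4 and 1688 at 2 h, then 4510.6, 3757.9 and 1873.3 at 3 h. The 1 h libraries overlapped those of PS0, and the 2 h and 3 h libraries all lay above them. The log2 difference was 0.48 ± 0.33 at 1 h (adjusted p = 0.495), 1.16 ± 0.33 at 2 h (0.0705) and 1.82 ± 0.33 at 3 h (0.00189). The 3 h mean was 3.58 times that of PS0, and its call was kept in all 6 fits that left out 1 library. The 2 h difference passed without replicate 3 of PS0 (1.45, adjusted p = 0.0361) and with edgeR (0.0242) and DESeq2 (0.00741). Between 1 h and 3 h the root difference was 1.34 ± 0.33 and missed the threshold (adjusted p = 0.0576). It passed without replicate 2 of 1 h (0.0493) or replicate 3 of 3 h (0.0106), and with edgeR (0.0105) and DESeq2 (0.000251). In that root comparison limma called 0 of the 6 dehydrins, and 1.0% of all genes were called higher. At an unadjusted p below 0.05 there were 2 dehydrins, beside 1096 of all 11950 genes either way.

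COR47, a cold-regulated acidic dehydrin and the genomic neighbour of ERD10, rose in shoots from 2 h. Its shoot libraries held 2140.2, 1996.4 and 1231.8 normalized counts in PS0 water, 2176.8, 1847.8 and 3160.4 at 1 h, 5996.8, 7929 and 6652.1 at 2 h, then 11862.1, 8959 and 10455.1 at 3 h. The 1 h libraries overlapped PS0, and the later ones lay above both and above each other in order of time. The log2 difference from PS0 was 0.42 ± 0.23 at 1 h (adjusted p = 0.747), 1.97 ± 0.23 at 2 h (9.43e-06) and 2.57 ± 0.23 at 3 h (1.73e-07). The mean at 3 h was 5.83 times that of PS0. From 1 h to 3 h COR47 rose by 2.15 ± 0.23 (4.46e-06), and 5 of the 6 dehydrins were called between these times, where 2.98% of all genes were called higher.

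In roots COR47 had no call against PS0 at any time. Its values were 7804.8, 8559.1 and 15329.2 in PS0 water, 7121.7, 11545.8 and 4365.6 at 1 h, 8767.7, 12072.7 and 6248.4 at 2 h, then 11134.3, 13894.4 and 9300.2 at 3 h. All the treated groups overlapped PS0. At 3 h the log2 difference was 0.16 ± 0.40 (adjusted p = 0.863), and the earlier differences were -0.50 ± 0.40 (0.556) and -0.21 ± 0.40 (0.856). The root mean at 3 h, 11443.0 ± 2312.6 (SD, n = 3), and the shoot mean at 3 h, 10425.4 ± 1451.8, lay within an SD of each other, whereas PS0 roots held 10564.4 ± 4143.7 and PS0 shoots 1789.5 ± 488.

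ERD14, an acidic dehydrin that binds calcium after phosphorylation by casein kinase 2, also rose in shoots at 2 h and 3 h. Shoot normalized counts were 1248.2, 1200.3 and 891.2 in PS0 water, 1833.3, 1742.9 and 2241.2 at 1 h, 2505.7, 5019.6 and 3306.6 at 2 h, then 6236.3, 5079.5 and 6849 at 3 h. Every treated shoot library lay above every PS0 library. The log2 difference was 0.81 ± 0.23 at 1 h (adjusted p = 0.152), 1.65 ± 0.23 at 2 h (7.04e-05) and 2.45 ± 0.23 at 3 h (2.85e-07). The 1 h difference passed with edgeR (0.0387), with DESeq2 (0.0261), with a depth term (0.0489) and without the libraries under 600000 reads (0.0422).

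Roots gave no call for ERD14 against PS0. The root libraries held 2724.7, 2689.6 and 4632.6 in PS0 water, 3361.7, 6393.5 and 1400.6 at 1 h, 2726.1, 5753.5 and 2537.1 at 2 h, then 3788.6, 3872.7 and 3924.8 at 3 h. Within the 1 h and 2 h groups replicate 2 was the highest, and the spread at those times was far wider than at 3 h. Replicate 2 of 1 h is also the shallowest root library, with 429814 reads, and its shoot marker sum of 4188.4 was the highest of the roots. The part of either in its ERD14 value was not tested. The log2 difference at 3 h was 0.25 ± 0.43 (adjusted p = 0.795).

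RAB18 was low in all roots and rose late in shoots. Its shoot libraries held 31.7, 19.9 and 14 normalized counts in PS0 water, 8.9, 11.7 and 20.8 at 1 h, 115.8, 152.7 and 135.9 at 2 h, then 352, 228.1 and 348.1 at 3 h. At 1 h the shoots overlapped water, and at 2 h and 3 h all lay far above it. The log2 difference from PS0 was -0.63 ± 0.37 at 1 h (adjusted p = 0.766), 2.64 ± 0.37 at 2 h (7.44e-05) and 3.81 ± 0.37 at 3 h (4.27e-07), when the mean was 14.1 times that of PS0. Between 1 h and 3 h it rose by 4.44 ± 0.37 (adjusted p = 2.18e-07), a 22.4-fold difference of the means and the largest log2 difference of the 6 genes between those times.

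In roots RAB18 rested on few reads, 0 to 127 per library with a median of 5. Its normalized counts were 1, 3.5 and 18.6 in PS0 water, 4.7, 12.8 and 18.5 at 1 h, 7.2, 7.7 and 7.4 at 2 h, then 16.3, 15.6 and 11.5 at 3 h. Replicate 3 of PS0 alone exceeded every treated root library, and the other PS0 libraries lay below them all. That replicate was also the only root water library to reach the filter level of 5, so RAB18 passed the root filter through treated libraries. The log2 difference at 3 h was 1.45 ± 0.68 and was not called, and without that replicate it was 2.35. Because RAB18 entered the root test through treated libraries, no p-value is given for either fit. RAB18 overlaps AT5G66410 by 11 bases on the other strand in TAIR10.1, and the sources used here do not say whether strand was used in counting.

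LTI30, the membrane-binding dehydrin, rose in shoots at 2 h and 3 h and was called in roots at 3 h. In shoots it held 275, 323 and 139.5 normalized counts in PS0 water, 380.9, 224 and 402.1 at 1 h, 693.3, 709.4 and 648.8 at 2 h, then 1336.7, 957.1 and 1410.8 at 3 h. The 1 h libraries overlapped PS0, and the later groups lay above it and did not overlap each other. The log2 difference was 0.49 ± 0.28 at 1 h (adjusted p = 0.768), 1.56 ± 0.28 at 2 h (0.0012) and 2.39 ± 0.28 at 3 h (5.89e-06).

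In roots LTI30 held 970.7, 1566.1 and 2661 in PS0 water, 2481.6, 2806.5 and 1587.9 at 1 h, 2472.1, 5009.5 and 2008.8 at 2 h, then 4800.8, 5075.4 and 3341 at 3 h. Only the 3 h libraries all lay above PS0. The log2 difference was 0.48 ± 0.38 at 1 h (adjusted p = 0.554), 0.87 ± 0.38 at 2 h (0.277) and 1.44 ± 0.38 at 3 h (0.0267). The 3 h call was lost without replicate 1 of PS0 (adjusted p = 0.102), replicate 2 of PS0 (0.0778), replicate 1 of 3 h (0.0891) or replicate 2 of 3 h (0.106), and when the compared groups were fitted alone (0.0788).

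HIRD11, the histidine-rich dehydrin, was not called in either tissue at any time. Its shoot libraries held 7450.2, 7215.6 and 5106.6 normalized counts in PS0 water, 6453.3, 5782.4 and 6733.1 at 1 h, 5654.5, 6407 and 5547.6 at 2 h, then 7411, 5345.8 and 6332.9 at 3 h. All of these groups overlapped, and the log2 difference from PS0 was -0.04 ± 0.19 at 1 h, -0.15 ± 0.19 at 2 h and -0.04 ± 0.19 at 3 h (adjusted p = 0.989, 0.679 and 0.917). In roots the values ran from 1464.9 to 6557.3 in the treated libraries and from 2483.8 to 10966.7 in water. The root difference at 3 h was -0.74 ± 0.56 (adjusted p = 0.499), with a wider SE than in shoots, so a change of this size in roots could not be resolved with these replicates.

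**Figure D3:**
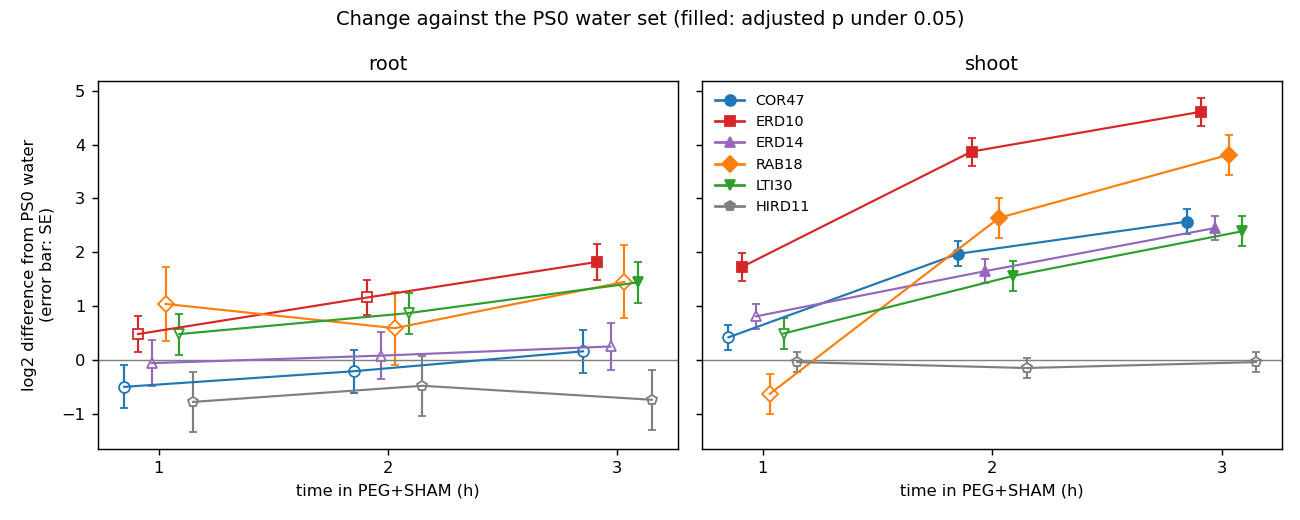
Log2 difference from PS0 water at 1, 2 and 3 h of PEG and SHAM for each dehydrin in roots and shoots, with the SE of the fit; filled markers are calls at an adjusted p below 0.05. In shoots 5 genes are called at 2 h and 3 h, with ERD10 highest at 4.61; in roots ERD10 (1.82) and LTI30 (1.44) are called at 3 h.

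The response of COR47, ERD10 and ERD14 was smaller in roots than in shoots when the difference itself was tested. At 3 h against PS0 the root response minus the shoot response was -2.41 ± 0.45 for COR47 (adjusted p = 0.00108), -2.79 ± 0.44 for ERD10 (9.71e-05) and -2.19 ± 0.51 for ERD14 (0.00871). These are 3 of 6 dehydrins, where 1.64% of all 9191 genes tested were called lower, and each call was kept in the 12 fits that left out 1 library. For RAB18 the difference was -2.36 ± 0.79 and was not called, and without replicate 1 of root PS0 it was -3.10. RAB18 passed the root filter through treated libraries and held 1, 4 and 6 reads in root PS0, so no p-value is given. LTI30, at -0.95 ± 0.49 (0.327), and HIRD11, at -0.69 ± 0.62 (0.647), did not pass.

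At 2 h the same test called COR47, at -2.18 ± 0.45 (adjusted p = 0.00411), and ERD10, at -2.70 ± 0.44 (0.000223), 2 of 6 beside 1.12% of all genes called lower. For COR47 the call was lost when the compared groups were fitted alone (0.112) and when root and shoot of one number were paired (0.0512). ERD14 at 2 h was -1.58 ± 0.51 (0.0997) and passed without replicate 2 of root 2 h (-1.95, 0.0307). RAB18 was -2.05 ± 0.79 and was not called, and without replicate 1 of root PS0 it was -2.79. As at 3 h, no p-value of RAB18 is given. At 1 h limma, edgeR and DESeq2 each called 0 of 6, where limma called 0.131% of all genes lower. At an unadjusted p below 0.05 there were 3 of 6, beside 705 of all 9191 genes either way. These went in both directions: COR47 (-0.93 ± 0.45) and ERD10 (-1.25 ± 0.44) below 0, RAB18 (1.67 ± 0.79) above. With S0 and PH0 water as control in both tissues, the 3 calls at 3 h remained, at -2.01 ± 0.39 for COR47 (0.000511), -2.69 ± 0.38 for ERD10 (5.8e-06) and -1.96 ± 0.44 for ERD14 (0.00234), with 5.52% of all genes called lower. Under that control RAB18 at 1 h was called the other way, by 2.94 ± 0.68, where 5.54% of all genes were called higher. Its root libraries in S0 and PH0 held only 0 to 3 reads each. RAB18 passed the root filter through treated libraries, so this call adds no separate support. ERD10 at 1 h was called lower, at -1.15 ± 0.38 (0.0457), where 5.41% of all genes were called lower. ERD14 at 2 h also passed under that control, at -1.34 ± 0.44 (0.0434).

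In water the tissues also differed. Over the 9 water libraries of each tissue, root values of COR47 ran from 3445.9 to 15329.2 with a median of 5207.8, and shoot values from 799.3 to 2140.2 with a median of 1119.1. The root range lay above the shoot range for COR47, ERD10 and ERD14, 3 of 6 beside 11.3% of all genes, whereas the root and shoot ranges overlapped for LTI30, RAB18 and HIRD11. The log2 difference of root from shoot was 2.27 ± 0.18 for COR47 (adjusted p = 7.21e-13), 1.85 ± 0.18 for ERD10 (8.41e-11), 1.40 ± 0.20 for ERD14 (4.17e-07) and 2.77 ± 0.20 for LTI30 (6.22e-14). RAB18 went the other way, at -2.80 ± 0.32 (3.62e-09), and HIRD11 was -0.34 ± 0.25 (0.224). These 4 higher and 1 lower calls stand beside 46.6% of all 13218 genes called higher in root and 22.8% called lower, and the median of all genes was 0.58. The share of genes called is so large that a call by itself says little here.

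The water sets were not alike for these genes, and LTI30 differed most. In roots LTI30 held 219.9, 300.8 and 376.9 normalized counts in S0 and 172.8, 193.2 and 193.8 in PH0, against 970.7 to 2661 in PS0. In shoots it held 49.5, 40.7 and 39.5 in S0 and 33.3, 26.8 and 19.5 in PH0, against 139.5 to 323 in PS0. The PS0 libraries lay above all other water libraries in both tissues. The log2 difference of PS0 from S0 and PH0 was 2.77 ± 0.33 in roots (adjusted p = 8.51e-05) and 2.76 ± 0.25 in shoots (1.58e-06), a mean 7.13 and 7.05 times higher. Both calls were kept in each of the 9 fits that left out 1 library.

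In roots ERD10 was the other dehydrin called higher in PS0, 2 of 6 beside 1.41% of all genes, at 1.08 ± 0.29 (adjusted p = 0.0433). That call was kept without replicate 1 of PS0 and was lost without any of the other 8 water libraries (adjusted p from 0.0602 to 0.228), without the libraries under 600000 reads (0.149) and under the replicate block (0.0561). COR47, at 1.2 ± 0.34 (0.0581), passed with edgeR (0.00655) and DESeq2 (0.000266). RAB18, at 1.62 ± 0.58 (0.141), passed without replicate 1 of PS0 (0.0454). It held only 1, 4 and 6 reads in the PS0 libraries, so that pass adds no separate support. In shoots COR47 at 0.80 ± 0.20 (0.0134) and ERD10 at 0.98 ± 0.23 (0.00838) joined LTI30, 3 of 6 beside 5.34% of all genes. The COR47 call was lost without the libraries under 600000 reads (0.0842). Leaving out replicate 1 or 2 of shoot PS0 also ended it (0.0887 and 0.0895), and leaving out replicate 2 ended that of ERD10 (0.0739), while ERD14, at 0.53 ± 0.20 (0.0911), passed without replicate 3 (0.0431). The shoot ERD10 call was also lost when the compared water sets were fitted alone (0.0533).

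Between S0 and PH0, RAB18 was lower in S0 shoots, with 10.8, 9.5 and 5.6 normalized counts against 44.4, 24.2 and 24.8 in PH0. The log2 difference was -1.72 ± 0.37 (adjusted p = 0.00599), 1 of 6 dehydrins called lower beside 5.15% of all genes, and it was kept in all 6 fits that left out 1 library. It was lost when the compared groups were fitted alone (0.077). ERD10 passed in shoots without replicate 3 of PH0 (0.028). In roots limma called 0 of 6 between S0 and PH0, and edgeR and DESeq2 called 0, where limma called 3.87% of all genes either way. At an unadjusted p below 0.05 there were 0 of 6, beside 3173 of all 11950 genes.

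The choice of water set therefore moved the root calls. Against S0 and PH0 water, 4 of 6 dehydrins were called higher in roots at 3 h, where 8.08% of all genes were called higher. The log2 differences were 4.21 ± 0.33 for LTI30 (adjusted p = 6.75e-08), 3.07 ± 0.58 for RAB18 (0.001), 2.90 ± 0.29 for ERD10 (1.25e-06) and 1.36 ± 0.34 for COR47 (0.00793). ERD14 was 1.02 ± 0.38 (0.0574) and HIRD11 -0.44 ± 0.49 (0.529). Already at 1 h LTI30 at 3.25 ± 0.33 (4.95e-06), RAB18 at 2.66 ± 0.58 (0.00457) and ERD10 at 1.55 ± 0.29 (0.00133) were called in roots under this control, 3 of 6 beside 5.79% of all genes. RAB18 is counted at both times, but its root libraries held only 2, 0 and 2 reads in S0 and 2, 1 and 3 in PH0. It passed the root filter through treated libraries, so its calls here add no separate support.

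In shoots the same 5 genes were called at 3 h with either control, where 11.7% of all genes were called higher against S0 and PH0. With S0 and PH0 water the log2 difference of LTI30 there was 5.15 ± 0.25 (adjusted p = 8.7e-12) in place of 2.39, and that of ERD10 was 5.59 ± 0.23 (1.09e-12) in place of 4.61. At 1 h 4 of 6 were called in shoots, LTI30, ERD10, ERD14 and COR47, where 8.14% of all genes were called higher. RAB18, at -0.28 ± 0.32 (0.574), was not called there, and HIRD11 was not called with either control at any time.

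**Figure D4:**
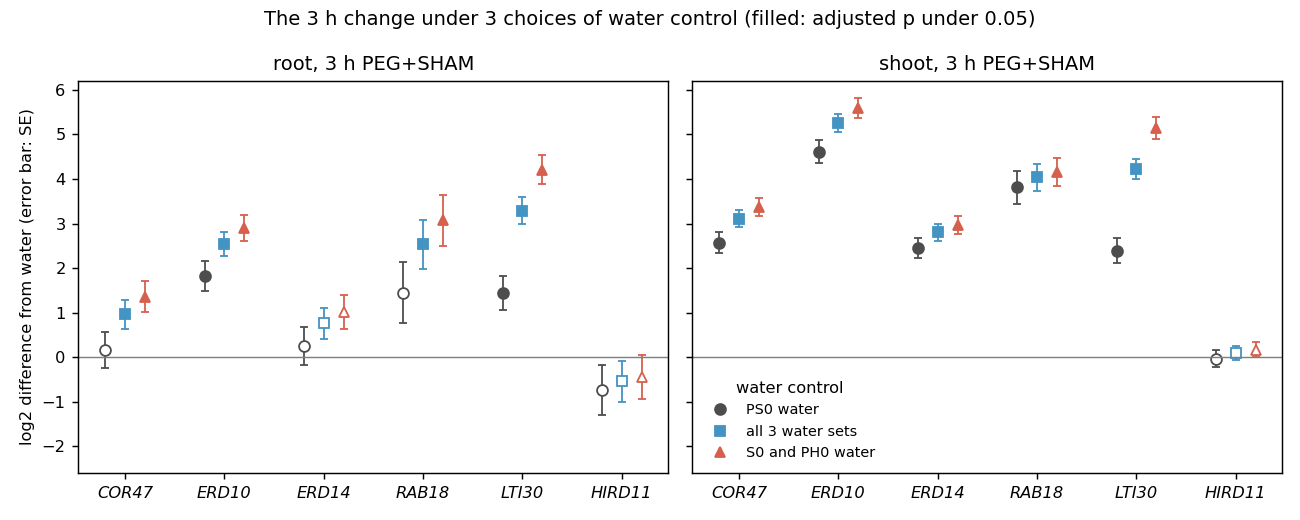
Log2 difference of each dehydrin at 3 h of PEG and SHAM from each choice of water control (PS0, all 3 sets, or S0 and PH0), in roots and shoots, with the SE of the fit. In roots LTI30 moves from 1.44 with PS0 to 4.21 with S0 and PH0, and HIRD11 is below 0 with each control.

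The other dehydrin genes of the genome were low. Of 4 further genes listed, 3 were in the table. XERO1, the neighbour of LTI30, was too low in shoots to be tested there. In roots it ran from 3.2 to 51.2 normalized counts and had no call against PS0. In water, root libraries averaged 16.1 ± 13.4 for XERO1 (SD, n = 9) and shoot libraries 1.29 ± 2.35, and these ranges overlapped. The log2 difference of root from shoot was 3.02 ± 0.42. Each shoot water library held only 0 to 2 reads of XERO1. The gene entered this comparison through its root values alone, so no test of it is given. AT4G38410 held 29.7, 13.6 and 46.9 normalized counts in shoots at 3 h against 7.1, 0 and 1.1 in PS0 water, which rested on 2, 0 and 2 reads. The log2 difference was 3.43 ± 0.70. Replicate 1 of PS0 was the only shoot water library to reach the filter level of 5. AT4G38410 thus passed the filter through treated libraries, and no test of the difference is given. AT4G39130 did not exceed 2.2 in any library and was not tested.

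Genes of the pathway were counted by list. Of the DREB factors, which bind the DRE, limma called 5 of 6 tested higher in roots at 3 h and 4 of 7 in shoots, with list medians of 3.94 and 2.62 on the log2 scale. There edgeR called 6 in roots and 4 in shoots, and DESeq2 called 6 and 2. Of all tested genes, 3.49% were called higher in roots at 3 h and 6.66% in shoots. CBF4, a DREB factor known from drought, held 30.3 ± 6.82 (SD, n = 3) normalized counts in roots at 3 h and 0.633 ± 0.551 in PS0 water (log2 difference 4.30 ± 0.44). CBF4 is counted among the root calls, but its PS0 mean lay below the filter level of 5. It may have passed the filter through treated libraries, so no test of the difference is given. Of the ABF and related bZIP factors limma called 1 of 5 higher in roots and 2 of 6 in shoots, with medians of 0.53 and 1.03. For these, edgeR and DESeq2 each called 1 in roots and 4 in shoots. ABF3, which binds the ABRE, was called in both, with 151 ± 7.96 against 62.8 ± 14.5 in roots (1.28 ± 0.28, adjusted p = 0.00866) and 312 ± 42.7 against 25.6 ± 7.36 in shoots (3.59 ± 0.24, 3.14e-09).

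Among 12 other cold and abscisic acid response genes, 5 of 10 tested were called higher in roots at 3 h and 8 of 12 in shoots, beside 3.49% and 6.66% of all genes, with medians of 1.54 and 2.49. LTI78, a hydrophilic protein of drought and cold, held 3879 ± 675 normalized counts in shoots at 3 h and 361 ± 81.5 in PS0 water (3.43 ± 0.25, adjusted p = 7.08e-09). Of the casein kinase 2 subunits, limma called 0 of 8 tested in roots at 3 h and 0 of 4 in shoots. At an unadjusted p below 0.05 there was 1 in roots and 0 in shoots, beside 2490 of all 11950 and 2817 of all 10459 genes. At 3 h edgeR and DESeq2 called 0 in both. The medians of all genes at 3 h were -0.16 in roots and -0.08 in shoots.

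The members were also compared by their course over the 18 libraries of each tissue, as a description in which the points share the treatment. COR47, ERD10, ERD14, RAB18 and LTI30 correlated with each other at Pearson r of 0.607 to 0.947 in roots and 0.706 to 0.979 in shoots on the log2 scale. HIRD11 correlated with the other 5 at r of -0.049 to 0.354 in roots and -0.015 to 0.393 in shoots. By the lower of the root and shoot correlations over 9191 genes, LTI78 was the gene most like both LTI30 (r = 0.973 in roots and 0.985 in shoots) and ERD10 (0.947 and 0.950). AT1G16850 was most like COR47 (0.906 and 0.909), AT5G24610 most like ERD14 (0.904 and 0.915), LEA14 most like RAB18 (0.866 and 0.830) and VPS24.1 most like HIRD11 (0.809 and 0.764). Next in that order came RD26 and ZAT6 for ERD10, KIN1 and DAN1 for COR47, AT3G14060 and KIN2 for ERD14, AT1G71520 and P5CS1 for RAB18, LEA14 and FP6 for LTI30, and AT5G14440 and AT5G51840 for HIRD11.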

How the data were processed

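MARS-seq profiles of 36 libraries, 3 in each of 12 groups of wild-type roots and shoots, came as 1 table of 16283 genes. The authors deposited a normalized signal, gene counts divided by 1 size factor per library and rounded; this is read from the values. Per the submitters' processing notes, the tools include STAR 2.4.2a, HTSeq, DESeq2, cutadapt and bcl2fastq, with no roles. The sources used here do not give build, annotation, strand or handling of molecular identifiers. Such normalization assumes that most genes are level, so a shift of all genes would not show.

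Whole reads were recovered from the step between values (at least 99.9324% of the values of each library whole, within 0.05) and served for depth, edgeR 4.0.16 and DESeq2 1.42.0. The count tests are alternatives. The search was tested on simulated libraries and returned the step within 0.1% in 36 of 36. Depth is given by reads per library, which limits the low genes.

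The main test was limma 3.58.1 (R 4.3.3) with a mean-variance trend on log2(signal + 1), with 18 libraries and 6 group means per tissue, or 36 libraries and 12 means across tissues. Testing was limited to genes whose signal reached 5 in 3 or more of a tissue's libraries, and p-values were adjusted by Benjamini-Hochberg over all of them. Replicates are separate pools of seedlings per the labels. Alternatives are pseudocount, filter, scaling, count tools, the compared groups alone, a replicate block, a depth term, shallow libraries left out, other water controls and leaving out each library.

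All 6 dehydrins are named. From each list, the called gene with the largest moderated statistic at 3 h could be named, and any other dehydrin. Likeness is the lower of the root and shoot correlations. The members and lists were chosen with earlier results of these data known. Upstream windows were read from RefSeq's TAIR10.1 by gene identifier.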

Additional observations from a re-analysis of the deposited data

Results flagged for a closer look

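For 3 dehydrins the response to PEG and SHAM differed between roots and shoots by a direct test with limma. At 2 h against PS0 water the root response minus the shoot response was -2.18 for COR47 and -2.70 for ERD10. At 3 h it was -2.41 for COR47, -2.79 for ERD10 and -2.19 for ERD14. In each case the log2 difference from PS0 was higher in shoots. In roots COR47 was at -0.21 ± 0.40 at 2 h and 0.16 ± 0.40 at 3 h, and ERD14 at 0.25 ± 0.43 at 3 h, none of them called. In PS0 water the normalized count was 10564.4 in roots and 1789.5 in shoots for COR47, 944 and 240 for ERD10, and 3349.0 and 1113.2 for ERD14. Whether the higher root level in water bears on the difference was not tested.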

How the results depend on the processing

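The 5 calls in shoots at 2 h and 3 h, the 5 between 1 h and 3 h in shoots, stayed at 5 under every alternative run. The differences between tissues numbered 3 or 4 at 3 h (3 as reported), and 5 or 6 in water (5 as reported). No called value of a dehydrin changed its sign. Of 2067 values of single dehydrins under alternatives, 1879 stayed on their side of the threshold with the same sign, 85 passed newly, 23 were lost and 80 uncalled values changed sign (lowest adjusted p 0.0598).

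The counts below are dehydrins called, of 6. The count of all genes called also moved with the alternative. For root S0 against PH0 it ran from 1 to 4581 (463 as reported), and for the tissue difference at 2 h from 99 to 1068 (242 as reported). The share of all genes called under each alternative is not given, so the counts show only how the dehydrin calls moved. With all 3 water sets or with S0 and PH0 as control roots had 3 and 3 (1 h), 2 and 3 (2 h), and 4 and 4 (3 h), in place of 0, 0 and 2; in shoots at 1 h they were 4 and 4 in place of 1. The difference between tissues at 1 h then had 2 and 2 in place of 0, controls that were added after the data were seen. TMM rescaling, quantile normalization, edgeR, DESeq2, a depth term and leaving out the libraries under 600000 reads each gave 1 in roots at 2 h and 1 between 3 h and 1 h in roots, in place of 0; a filter at 20 also gave 1 for the latter. In shoots at 1 h quantile normalization, edgeR, DESeq2, the depth term and leaving out shallow libraries each gave 2. Fitting the compared groups alone gave 1 in roots at 3 h, 1 for the tissue difference at 2 h, 4 for root PS0 against the other water sets, 3 for root S0 against PH0 and 0 for shoot S0 against PH0. For root PS0 against the other sets, quantile normalization and DESeq2 gave 4 and leaving out shallow libraries gave 1. For shoot PS0 against the others (3 as reported), quantile normalization gave 5, DESeq2 and the depth term gave 4, and the compared groups alone and leaving out shallow libraries gave 2, and for shoot S0 against PH0, TMM gave 2, quantile normalization 2, the depth term 3 and leaving out shallow libraries 2. The cause was not tested.

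Leaving out 1 library gave 0 to 1 in roots at 2 h, 1 to 3 at 3 h, 0 to 1 between 3 h and 1 h, 1 to 3 for root PS0 against the others, 1 to 4 for shoot PS0 against the others and 1 to 2 for shoot S0 against PH0.

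The replicate numbers gave no sign of pairing on average, but single pairs varied widely. After removal of group means, libraries of one number had a mean correlation of 0.041 in roots and 0.001 in shoots, each from 45 pairs. Root pairs ran from -0.472 to 0.51, with 15 above 0.1, and shoot pairs from -0.222 to 0.494, with 7 above 0.1. Root with shoot libraries had a mean of -0.035 over 18 pairs, from -0.411 to 0.25. A replicate block gave 1 for root PS0 against the other sets in place of 2 and changed no other count. Pairing root and shoot of one number as a replicate block, added after the data were seen because roots and shoots came from the same seedlings, gave 1 for the tissue difference at 2 h in place of 2 and changed no other count.

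Over the same alternatives, the count of all genes called against PS0 ran from 0 to 2472 in roots at 1 h and from 931 to 3037 in shoots at 3 h. Depth limits RAB18 in roots most, with a median of 5 reads per library.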
